A study of Mus musculus with 9 samples.

Results

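The HOX cluster genes are homeobox genes that stand in 4 tight clusters, Hoxa, Hoxb, Hoxc and Hoxd, in the mouse genome. All genes of the count table whose symbol is Hox, a cluster letter and a number were taken, which gave 39 of the table's 45361 identifiers, and 38 of them are described here. They were measured by RNA-seq in CH12F3, a mouse B-lymphoma cell line that is widely used to study antibody class switching. In every library the cells carried a Ligase4 knockout, which removes a DNA end-joining ligase, and all had received the class-switch stimulus of anti-CD40 with IL-4 and TGF-β over 24 h. There were 3 libraries of cells given tazemetostat, 3 of cells given valemetostat and 3 of cells given DMSO, the solvent control. Tazemetostat inhibits EZH2 and valemetostat inhibits EZH1 and EZH2, the methyltransferases of Polycomb repressive complex 2 (PRC2). Doses, the length of inhibitor exposure, and whether the knockout line was 1 clone or the libraries came from separate cultures were not given in the sources used here.

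HOX proteins are transcription factors that set position along the body axis of the embryo. Within a cluster the genes lie in the order of their numbers, low numbers at the 3′ end and high numbers at the 5′ end, and genes with the same number in different clusters are paralogues. PRC2 places trimethyl marks on lysine 27 of histone H3, and HOX clusters are textbook examples of genes kept silent by these marks, while trithorax-group proteins such as MLL (Kmt2a) act in the opposite direction. Blood cells also use HOX genes, mainly in stem and progenitor cells.

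Promoters of 4 neighbouring Hoxd genes are shown because that cluster held genes that fell beside genes with no counts at all, and those of Hoxa10 and Hoxc4 because these genes were higher with an inhibitor. The Hoxd3 start shown lies between the starts of Hoxd8 and Hoxd4. Its window is thus upstream of Hoxd4 and out of number order. The table has another Hoxa10 start farther upstream, whose window held 7 CpG pairs and no CCAAT, and the start nearer the cluster's 3′ end is shown. Each is the 250 bases before a RefSeq start on build GRCm38.p6, written 5′ to 3′ along the gene. Capitals mark CCAAT on either strand and the palindrome CACGTG, and TGATNNAT, a HOX-PBX type motif that was searched on both strands too, was not found in these windows.
Hoxd8 (0 in every library; chr2:74704365-74704614, plus strand): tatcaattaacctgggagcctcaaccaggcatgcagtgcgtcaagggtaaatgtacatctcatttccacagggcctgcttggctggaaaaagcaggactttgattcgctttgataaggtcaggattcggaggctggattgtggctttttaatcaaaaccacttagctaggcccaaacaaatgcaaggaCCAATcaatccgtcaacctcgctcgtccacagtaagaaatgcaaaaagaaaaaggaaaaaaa
Hoxd3 (lower with both inhibitors; chr2:74711743-74711992, plus strand): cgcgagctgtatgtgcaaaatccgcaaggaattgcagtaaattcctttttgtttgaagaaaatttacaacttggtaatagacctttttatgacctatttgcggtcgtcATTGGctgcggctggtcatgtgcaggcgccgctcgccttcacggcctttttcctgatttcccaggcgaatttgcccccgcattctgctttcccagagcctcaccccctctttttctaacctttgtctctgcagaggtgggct
Hoxd4 (lower with tazemetostat; chr2:74721728-74721977, plus strand): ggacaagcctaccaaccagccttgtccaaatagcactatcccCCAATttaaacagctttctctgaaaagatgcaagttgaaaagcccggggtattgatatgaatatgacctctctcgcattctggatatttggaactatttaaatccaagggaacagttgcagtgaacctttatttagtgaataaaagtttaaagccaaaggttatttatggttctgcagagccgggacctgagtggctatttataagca
Hoxd1 (0 in every library; chr2:74762730-74762979, plus strand): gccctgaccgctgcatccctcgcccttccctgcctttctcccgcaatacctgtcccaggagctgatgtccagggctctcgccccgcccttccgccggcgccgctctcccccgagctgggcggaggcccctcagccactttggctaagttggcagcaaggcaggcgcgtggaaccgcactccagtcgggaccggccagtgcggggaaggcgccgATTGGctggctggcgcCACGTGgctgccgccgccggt
Hoxa10 (higher with both inhibitors; chr6:52234940-52235189, minus strand): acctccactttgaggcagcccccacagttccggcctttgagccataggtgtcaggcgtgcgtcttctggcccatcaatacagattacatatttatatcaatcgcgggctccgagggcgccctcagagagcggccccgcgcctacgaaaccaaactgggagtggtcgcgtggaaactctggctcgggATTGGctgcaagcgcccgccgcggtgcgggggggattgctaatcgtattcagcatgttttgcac
Hoxc4 (higher with valemetostat; chr15:103034145-103034394, plus strand): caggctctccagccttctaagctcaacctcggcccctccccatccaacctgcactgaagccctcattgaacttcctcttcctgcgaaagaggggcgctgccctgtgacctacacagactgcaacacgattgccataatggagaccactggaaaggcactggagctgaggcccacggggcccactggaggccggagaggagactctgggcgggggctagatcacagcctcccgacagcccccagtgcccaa
The windows of Hoxd3 and Hoxd4 each held 1 CCAAT, as did those of the 0-count genes Hoxd8 and Hoxd1, and the Hoxd1 window also held 1 CACGTG. No capitals of 1 motif overlapped another. CCAAT was present in 33.8% of all 32851 promoters in the table, CACGTG in 6.02% and TGATNNAT in 7.68%. CpG pairs numbered 24 in the Hoxd1 window, 12 in Hoxd3, 6 in Hoxd8 and 3 in Hoxd4, against a median of 6 over all promoters. The table had 24 promoters for 22 HOX genes, with a median of 12.5 CpG pairs. Among them, 6 of 11 promoters of tested genes and 7 of 11 promoters of genes at 0 held CCAAT. The palindrome CACGTG was in 0 of 11 promoters of tested genes and 4 of 11 of genes at 0, and TGATNNAT in 1 and 3 of 11. The 4 with CACGTG were all of Hoxd, those of Hoxd1, Hoxd10 and Hoxd13 and a Hoxd11 start. Most promoters of genes at 0 were of Hoxd too, so cluster and lack of counts cannot be told apart here.

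Of the 38 genes, 16 had no count in any library, 7 had counts too low to test and 15 were tested. The genes at 0 in all 9 libraries were Hoxa11, then Hoxb1, Hoxb7, Hoxb8, Hoxb9 and Hoxb13, then Hoxc11, Hoxc12 and Hoxc13, and finally Hoxd1, Hoxd8, Hoxd9, Hoxd10, Hoxd11, Hoxd12 and Hoxd13. The 9 libraries together held 352729851 counts, so 0 counts allow a level of up to 0.00851 CPM (counts scaled by library size) for each of these genes, counting error only. Neither inhibitor group gave a count for them, at floors of 0.0239 CPM with tazemetostat and 0.0271 CPM with valemetostat, against 0.0258 CPM in DMSO.

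Genes with counts lay mainly at low numbers. The 17 genes numbered 1 to 6 held 78.7% of the 23323 HOX counts, and 2 of them were at 0. The 12 genes numbered 7 to 10 held 21.3%, and 6 were at 0. Of the 9 genes numbered 11 to 13, 8 were at 0, and Hoxa13 had 2 counts, both in 1 tazemetostat library. Paralogue group 4 was the main group, with counts from all 4 of its genes that came to 12378. Hoxa and Hoxc were the broadest clusters, with counts in 9 of 10 and 6 of 9 genes, while Hoxb had counts in 5 of 10 and Hoxd in 2 of 9.

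**Figure D1:**
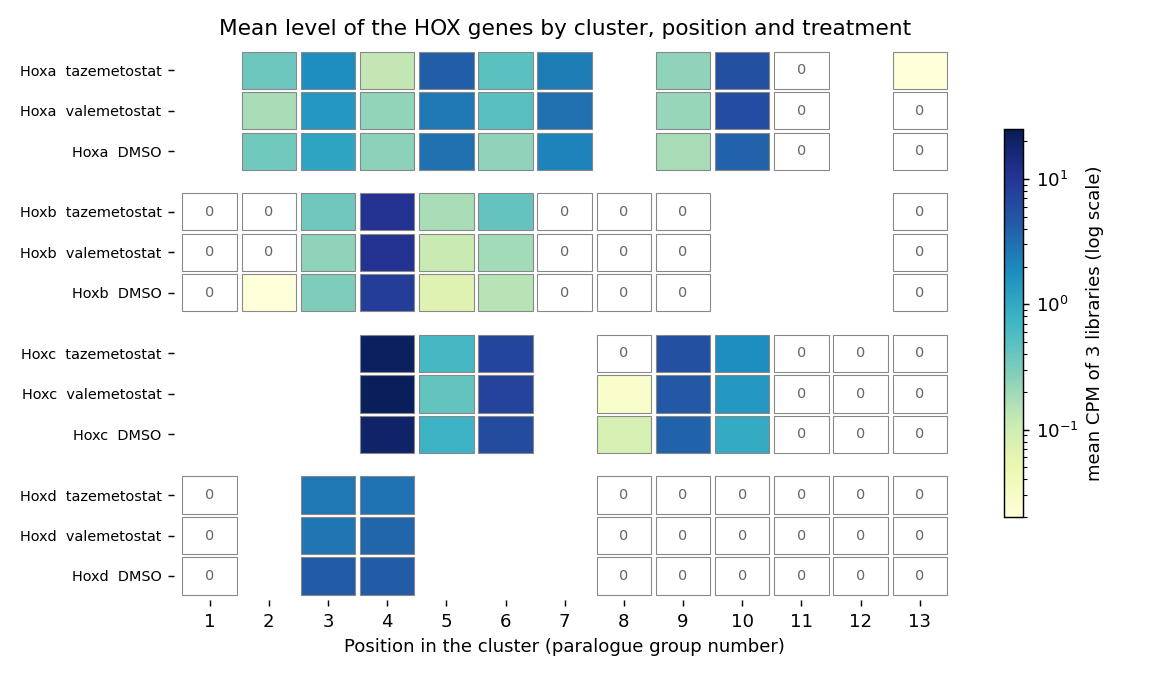
Mean CPM of 38 HOX genes in the 3 libraries of each group, as colour on a log scale, by cluster (rows) and position number (columns), with 0 written where a group has no count. Coloured squares sit at positions 2 to 10 except for Hoxa13 with tazemetostat, and the Hoxd rows have them only at Hoxd3 and Hoxd4.

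The most abundant HOX transcript was Hoxc4, which averaged 15.4 TPM (a level scaled by transcript length and library) over the 9 libraries, with a range from 13.31 to 17.69 TPM. That put it at the 67.4th percentile of the 19109 genes above 0 TPM. Hoxc6 followed at 7.99 TPM, with no overlap with Hoxc4 in any library. Hoxb4 at 5.14 TPM and Hoxa10 at 5.08 TPM overlapped in range, and Hoxd3 averaged 4.33 TPM and Hoxd4 averaged 3.13 TPM. All other HOX genes averaged 2.76 TPM or less. In raw counts Hoxc4 alone held 32.7% of these HOX reads, Hoxb4 14.6% and Hoxc6 10.5%.

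The libraries held 34080504 to 46675110 counts, of which HOX genes took 2071 to 3267 counts each. Per library total, HOX genes summed to 66.59 to 70.85 CPM with tazemetostat and 66.18 to 73.59 CPM with valemetostat, against 58.96 to 62.0 CPM in DMSO. Lig4, the knocked-out gene, had 59, 21 and 49 counts with tazemetostat, 46, 31 and 33 with valemetostat, and 30, 39 and 29 in DMSO, and since the deleted part is not given these counts do not check the knockout. The mRNA level of the target Ezh2 averaged 178 ± 5.69 CPM with tazemetostat, 166 ± 3.71 CPM with valemetostat and 174 ± 3.79 CPM in DMSO (SD, n = 3 each), and neither Ezh2 nor Ezh1 was called. The 9 B cell markers, all with counts, summed to 8700 to 8920 CPM with tazemetostat, 8680 to 9100 CPM with valemetostat and 7280 to 7900 CPM in DMSO. Cd74 and Ighm made up most of that sum and were called higher with both inhibitors, while Pax5 averaged 128 CPM with tazemetostat, 123 CPM with valemetostat and 143 CPM in DMSO, without a call. The 7 T cell markers summed to 2.33 to 3.06 CPM with tazemetostat, 2.09 to 2.7 CPM with valemetostat and 1.79 to 1.99 CPM in DMSO, and none of the 5 tested was called. The 8 myeloid markers summed to 29.6 to 33.7 CPM with tazemetostat, 27.6 to 30.9 CPM with valemetostat and 30.1 to 33.3 CPM in DMSO, with Cd14 at 0. Within that sum, Lyz2 (167 counts with tazemetostat, 145 with valemetostat, 3 in DMSO) and Adgre1 (1033, 780 and 328 counts in those groups) were called higher, and Csf1r (2708, 2313 and 3390 counts) was called lower, with both inhibitors. The 10 stromal, endothelial and epithelial markers summed to 2.78 to 4.54 CPM with tazemetostat, 3.42 to 4.03 CPM with valemetostat and 1.86 to 3.34 CPM in DMSO, with Col1a2 at 0, and Lum (61 counts with tazemetostat, 60 with valemetostat, 0 in DMSO) was called higher. The 6 progenitor markers, with Mecom at 0, summed to 6.69 to 9.41 CPM with tazemetostat, 7.39 to 9.31 CPM with valemetostat and 4.85 to 5.55 CPM in DMSO, and Flt3 was called higher. The B cell, T cell and progenitor sums were thus higher in all 6 inhibitor libraries than in DMSO, and the part of these markers in the HOX results was not tested. In such bulk RNA, fewer cells of a type and less RNA per cell cannot be told apart.

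With tazemetostat, 4 of the 15 tested HOX genes rose and 2 fell. Calls were made where edgeR's quasi-likelihood test over 12580 genes gave an adjusted p (Benjamini-Hochberg) under 0.05, and of all those genes 19.9% were called higher and 18.2% lower (38.1% in either direction). With valemetostat, 3 HOX genes rose and 1 fell, against a background of 20.5% higher and 18.7% lower (39.2% in either direction). The shares of HOX genes called, 6 of 15 with tazemetostat and 4 of 15 with valemetostat, were near or below those backgrounds. The median log2 fold change of the 15 genes was 0.28 with tazemetostat and 0.31 with valemetostat, against 0.00 and 0.01 over all genes tested, and the median size without sign was 0.43 and 0.41, against 0.18 and 0.19. Between the inhibitors, where 0 HOX genes were called, the median size without sign was 0.31, against 0.07 over all genes. These medians are given as a description, and the part of low counts in them was not tested. All libraries of 1 group lay beyond all DMSO libraries in 8 of the 15 genes with tazemetostat, 6 above and 2 below, against 24.1% above and 23.3% below (47.4% in all) over all genes. With valemetostat it was 7 genes, 6 above and 1 below, against 24.8% above and 23.7% below (48.5% in all). Of the 15 genes, 0 were called at least 2-fold higher with either inhibitor, against 5.53% of all genes with tazemetostat and 5.37% with valemetostat. Tested by limma on the deposited log2(TPM + 1) values, on which changes of low genes are compressed, the HOX calls left were Hoxc9 with tazemetostat and Hoxa10 and Hoxd3 with valemetostat. With an offset for transcript length, Hoxb4 was no longer called with tazemetostat (log2 fold change 0.26, edgeR adjusted p = 0.0836) or valemetostat (0.22, edgeR adjusted p = 0.139), nor Hoxc10 with tazemetostat (0.80, edgeR adjusted p = 0.0682). Both comparisons used the same 3 DMSO libraries.

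**Figure D2:**
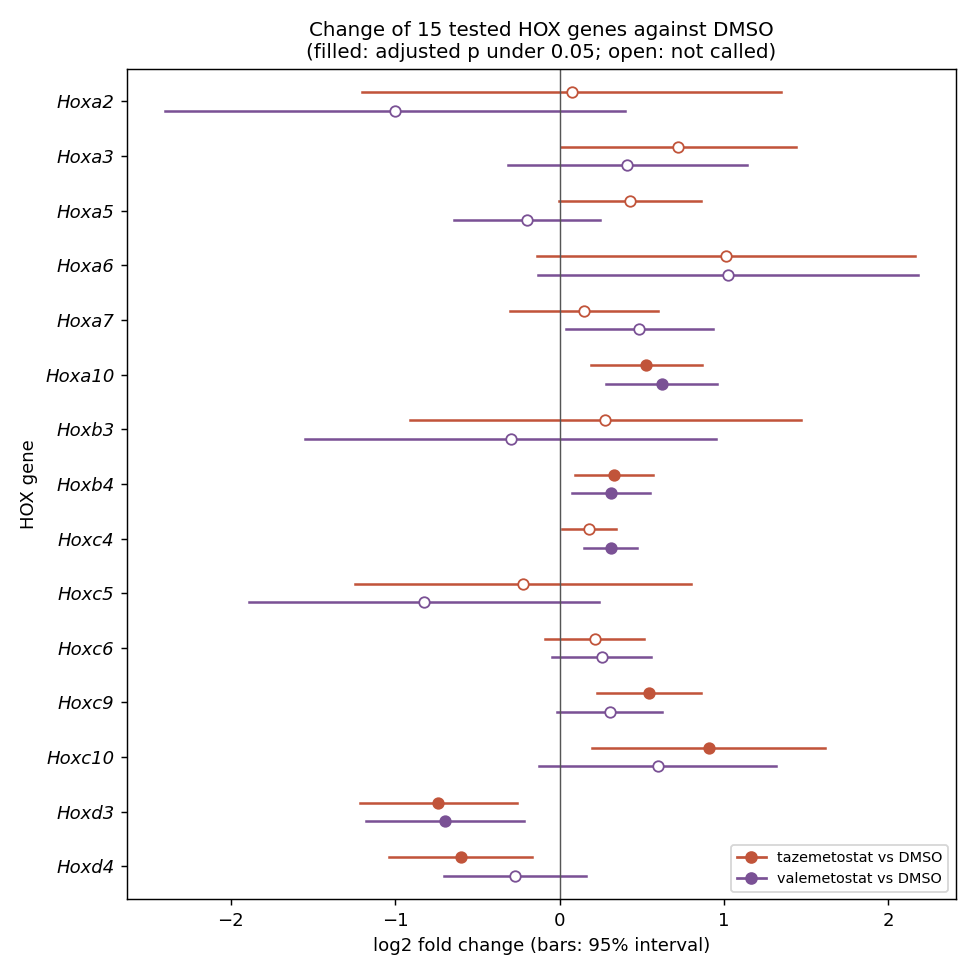
Log2 fold changes of 15 tested HOX genes with their 95% intervals, tazemetostat against DMSO and valemetostat against DMSO, with called genes filled. Hoxa10 and Hoxb4 lie above 0 in both comparisons and Hoxd3 lies below 0 in both.

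In the Hoxa cluster, Hoxa10 rose with each inhibitor, and the other 5 tested genes described here were not called. Hoxa10 is a regulator of blood progenitors that is often active in leukaemia. It had 296, 191 and 208 counts with tazemetostat, 223, 193 and 243 with valemetostat, and 180, 147 and 127 in DMSO. The levels were 6.43, 4.45 and 5.85 CPM with tazemetostat, 5.69, 5.59 and 6.58 CPM with valemetostat, and 3.80, 4.26 and 3.56 CPM in DMSO. All inhibitor libraries were above all DMSO libraries, though tazemetostat library 2 was close to the highest DMSO library. Hoxa10 rose by 0.53 ± 0.16 (SE) on the log2 scale with tazemetostat (edgeR adjusted p = 0.0127) and 0.62 ± 0.16 with valemetostat (edgeR adjusted p = 0.00374). Without tazemetostat library 1 the tazemetostat call was lost (edgeR adjusted p = 0.0914), and the valemetostat call held in all 18 alternatives.

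Among the uncalled Hoxa genes, Hoxa5, which acts in lung development and in blood progenitors, lay lower with valemetostat than with tazemetostat. It had 196, 191 and 132 counts with tazemetostat, 75, 87 and 133 with valemetostat, and 138, 103 and 119 in DMSO. In CPM the tazemetostat libraries, at 4.26, 4.45 and 3.71, all lay above the DMSO libraries, at 2.91, 2.99 and 3.34, and the valemetostat libraries, at 1.91, 2.52 and 3.60, spread over them. The log2 fold change was 0.43 with tazemetostat and -0.20 with valemetostat, and neither was called (edgeR adjusted p = 0.11 with tazemetostat and 0.496 with valemetostat). Hoxa7 averaged 2.41 ± 0.158 CPM with tazemetostat, 3.05 ± 0.249 CPM with valemetostat and 2.18 ± 0.291 CPM in DMSO, and its valemetostat libraries were all above DMSO without a call (edgeR adjusted p = 0.08). Hoxa3 is needed for the thymus and parathyroid of the mouse embryo. It averaged 1.80 ± 0.708 CPM with tazemetostat, 1.44 ± 0.349 CPM with valemetostat and 1.09 ± 0.175 CPM in DMSO, and was called with tazemetostat only when tazemetostat library 2, the lowest, was left out (log2 fold change 1.02, edgeR adjusted p = 0.0218). Hoxa6 had 28, 13 and 20 counts with tazemetostat, 26, 16 and 13 with valemetostat, and 9, 12 and 7 in DMSO, and its log2 fold changes of 1.01 ± 0.56 with tazemetostat and 1.02 with valemetostat were not called (edgeR adjusted p = 0.161 and 0.156). Hoxa2 had 21, 22 and 6 counts with tazemetostat, 4, 3 and 13 with valemetostat, and 24, 14 and 6 in DMSO, with groups that overlapped.

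The Hoxb cluster had a single well-measured gene, Hoxb4, a regulator known for expanding haematopoietic stem cells. Hoxb4 had 459, 443 and 388 counts with tazemetostat, 365, 348 and 422 with valemetostat, and 392, 298 and 281 in DMSO. The levels were 9.98, 10.32 and 10.9 CPM with tazemetostat, 9.31, 10.09 and 11.42 CPM with valemetostat, and 8.27, 8.64 and 7.88 CPM in DMSO, with no overlap between inhibitor and DMSO libraries. Hoxb4 rose by a log2 fold change of 0.33 ± 0.12 (SE) with tazemetostat (edgeR adjusted p = 0.0248) and 0.31 ± 0.12 with valemetostat (edgeR adjusted p = 0.033). Both calls were close to the threshold. The tazemetostat call was lost without DMSO libraries 1 or 3 or tazemetostat libraries 2 or 3 (edgeR adjusted p = 0.0516 to 0.0729), and the valemetostat call without DMSO libraries 1 or 3 or valemetostat libraries 2 or 3 (0.0555 to 0.162). Hoxb3, the other tested gene, had 18, 18 and 10 counts with tazemetostat, 6, 6 and 15 with valemetostat, and 18, 10 and 8 in DMSO, and was not called.

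In the Hoxc cluster, Hoxc9 and Hoxc10 rose with tazemetostat and Hoxc4 rose with valemetostat. Hoxc4 is known to promote antibody class switching in B cells. It had 1015, 943 and 761 counts with tazemetostat, 908, 802 and 936 with valemetostat, and 861, 676 and 718 in DMSO. The levels were 22.06, 21.96 and 21.38 CPM with tazemetostat, 23.17, 23.24 and 25.34 CPM with valemetostat, and 18.16, 19.61 and 20.13 CPM in DMSO. Every inhibitor library was above every DMSO library. The log2 fold change was 0.31 ± 0.08 (SE) with valemetostat (edgeR adjusted p = 0.0025) and 0.18 ± 0.08 with tazemetostat, which was not called (edgeR adjusted p = 0.0754). The valemetostat call held without any 1 library.

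Hoxc9 had 257, 244 and 200 counts with tazemetostat, 197, 172 and 159 with valemetostat, and 192, 123 and 141 in DMSO. The tazemetostat libraries were nearly identical at 5.59, 5.68 and 5.62 CPM, against 4.05, 3.57 and 3.95 CPM in DMSO, and the valemetostat libraries, at 5.03, 4.99 and 4.30 CPM, lay between. Hoxc9 rose by 0.54 ± 0.15 (SE) on the log2 scale with tazemetostat (edgeR adjusted p = 0.00642), and this call held in all 18 alternatives. With valemetostat the value was 0.31 without a call (edgeR adjusted p = 0.124). Hoxc10 had 76, 66 and 78 counts with tazemetostat, 43, 65 and 50 with valemetostat, and 34, 29 and 47 in DMSO. In CPM the tazemetostat libraries, at 1.65, 1.54 and 2.19, were all above DMSO, at 0.717, 0.841 and 1.32, and the valemetostat libraries, at 1.10, 1.88 and 1.35, overlapped DMSO. Its log2 fold change was 0.91 ± 0.35 with tazemetostat (edgeR adjusted p = 0.04) and 0.60 with valemetostat (edgeR adjusted p = 0.186). The tazemetostat call was lost without DMSO libraries 1 or 2 or tazemetostat libraries 1 or 3 (edgeR adjusted p = 0.0597 to 0.146). Hoxc6 averaged 7.13 ± 0.559 CPM with tazemetostat, 7.36 ± 1.31 CPM with valemetostat and 6.15 ± 0.71 CPM in DMSO, and was not called. Hoxc5, also not called, averaged 0.663 ± 0.286 CPM with tazemetostat, 0.433 ± 0.233 CPM with valemetostat and 0.777 ± 0.298 CPM in DMSO. Hoxc5 and Hoxc10 share 166 nt of exon in GENCODE M21, so their counts may not be separate.

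**Figure D3:**
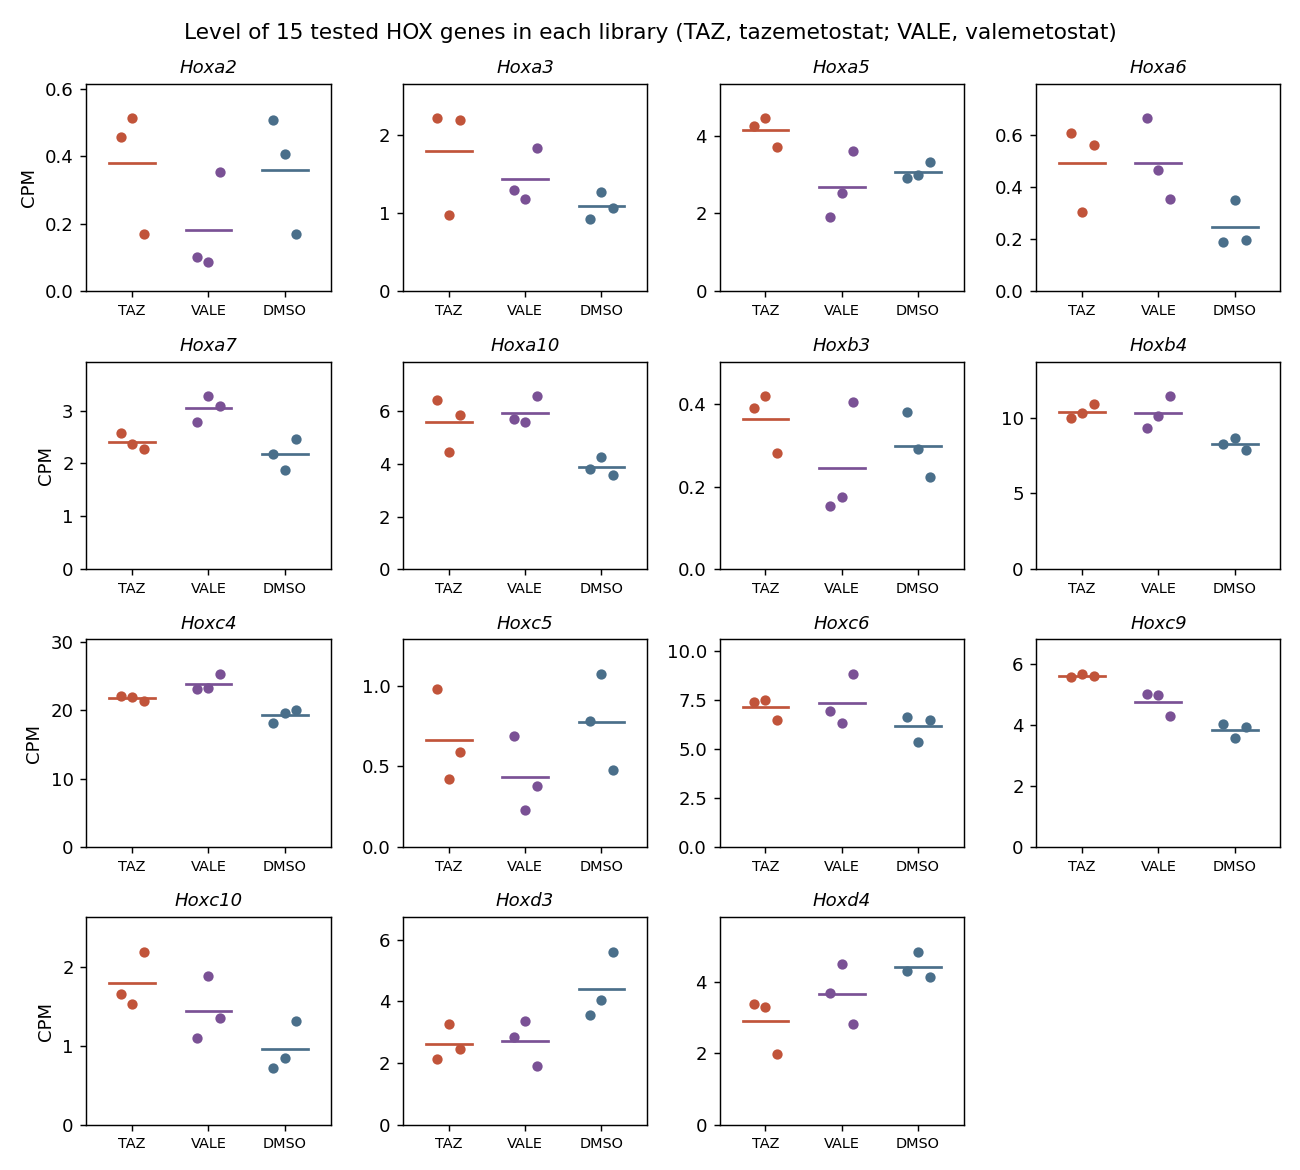
CPM of 15 tested HOX genes in each library (points), with the mean of each group of 3 libraries (lines), tazemetostat, valemetostat and DMSO from left to right, each panel on its own scale. Hoxa10, Hoxb4, Hoxc4 and Hoxc9 lie above DMSO in every inhibitor library, and Hoxd3 below DMSO in every one.

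In the Hoxd cluster, Hoxd3 fell with each inhibitor, Hoxd4 fell with tazemetostat, and the other 7 genes were at 0. Hoxd3 and Hoxd4 act in patterning of the neck vertebrae of the mouse. Hoxd3 had 98, 141 and 88 counts with tazemetostat, 112, 116 and 70 with valemetostat, and 169, 139 and 200 in DMSO, or 2.13, 3.28 and 2.47 CPM with tazemetostat, 2.86, 3.36 and 1.90 CPM with valemetostat, and 3.56, 4.03 and 5.61 CPM in DMSO. Every inhibitor library was below every DMSO library on the CPM scale. The log2 fold change was -0.74 ± 0.23 (SE) with tazemetostat (edgeR adjusted p = 0.0134) and -0.70 ± 0.23 with valemetostat (edgeR adjusted p = 0.0189). On the TPM table the tazemetostat value was -0.23 (limma adjusted p = 0.343). In the count test the tazemetostat call was lost without DMSO library 3 (edgeR adjusted p = 0.108) or tazemetostat library 1 (0.0727), and the valemetostat call without DMSO library 3 (0.142) or valemetostat library 3 (0.12).

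Hoxd4 had 156, 142 and 71 counts with tazemetostat, 145, 155 and 104 with valemetostat, and 204, 167 and 148 in DMSO. The levels were 3.391, 3.307 and 1.995 CPM with tazemetostat, 3.70, 4.49 and 2.82 CPM with valemetostat, and 4.30, 4.84 and 4.15 CPM in DMSO. The tazemetostat libraries were all below DMSO, and 1 valemetostat library lay within the DMSO range. The log2 fold change was -0.60 ± 0.21 (SE) with tazemetostat (edgeR adjusted p = 0.0255) and -0.27 ± 0.21 with valemetostat, which was not called (edgeR adjusted p = 0.323). The tazemetostat call was lost without DMSO library 2 (edgeR adjusted p = 0.0888) or tazemetostat library 3 (0.16).

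Hoxd3 and Hoxd4 share 388 nt of exon with each other in GENCODE M21 and share exons with another protein-coding gene model, Gm28230, of 2225 nt and 1154 nt. Gm28230 had 160, 61 and 112 counts with tazemetostat, 122, 0 and 175 with valemetostat, and 132, 111 and 38 in DMSO. It held 17.7 to 41.3% of the 3 genes' reads with tazemetostat, 0 to 50.1% with valemetostat and 9.84 to 26.6% in DMSO, so the split of reads among the 3 models varied between libraries of 1 group. The sum of the 3, chosen after the values were seen, was 8.998, 8.012 and 7.615 CPM with tazemetostat, 9.671, 7.854 and 9.447 CPM with valemetostat, and 10.65, 12.1 and 10.82 CPM in DMSO. All inhibitor libraries remained below all DMSO libraries. The summed log2 fold change was -0.44 ± 0.12 (SE) with tazemetostat (edgeR adjusted p = 0.00466) and -0.31 ± 0.12 with valemetostat (edgeR adjusted p = 0.0404), and Gm28230 alone was not called (0.918 and 0.926). The locus as a sum was thus lower by less than Hoxd3 alone. Because the sum was chosen with the falls of Hoxd3 and Hoxd4 known, its p-values are a description and no separate test.

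**Figure D4:**
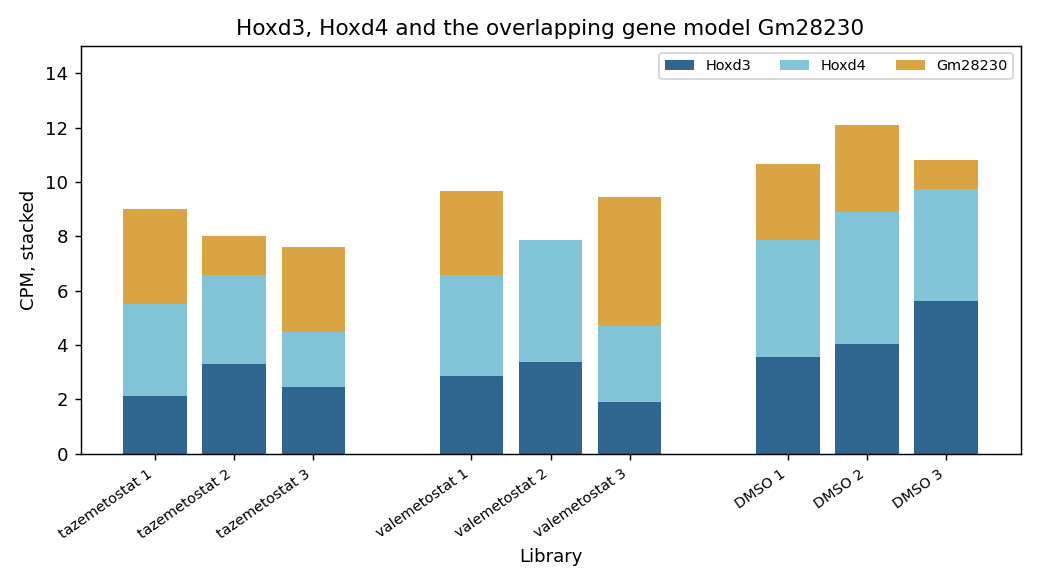
CPM of Hoxd3, Hoxd4 and the overlapping gene model Gm28230 in each of the 9 libraries, stacked, tazemetostat, valemetostat and DMSO from left to right. The stack heights are 7.615 to 8.998 CPM with tazemetostat, 7.854 to 9.671 CPM with valemetostat and 10.65 to 12.1 CPM in DMSO, while the share of Gm28230 varies within each group.

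Over whole clusters, Hoxa, Hoxb and Hoxc had higher mean CPM with the inhibitors and Hoxd lower. Summed CPM of Hoxa was 15.18 ± 1.85 with tazemetostat, 14.24 ± 1.7 with valemetostat and 11.25 ± 0.324 in DMSO (SD, n = 3 each). That of Hoxb was 11.37 ± 0.642 with tazemetostat, 10.82 ± 1.28 with valemetostat and 8.792 ± 0.493 in DMSO. On this scale every inhibitor library of both clusters lay above every DMSO library. On the TPM table DMSO libraries overlapped both inhibitor groups for Hoxa, valemetostat alone for Hoxb and tazemetostat alone for Hoxc. The Hoxc sum was 37.02 ± 0.71 with tazemetostat, 37.95 ± 2.02 with valemetostat and 31.13 ± 1.21 in DMSO. The Hoxd sum was 5.527 ± 1.06 with tazemetostat, 6.374 ± 1.58 with valemetostat and 8.832 ± 0.946 in DMSO, and it made up 8.0% of these HOX genes' CPM with tazemetostat, 9.19% with valemetostat and 14.7% in DMSO. Cluster sums follow their few abundant genes and were not tested. No tested HOX gene of the Hoxa, Hoxb or Hoxc clusters was called lower, and no Hoxd gene higher, in either comparison with DMSO.

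**Figure D5:**
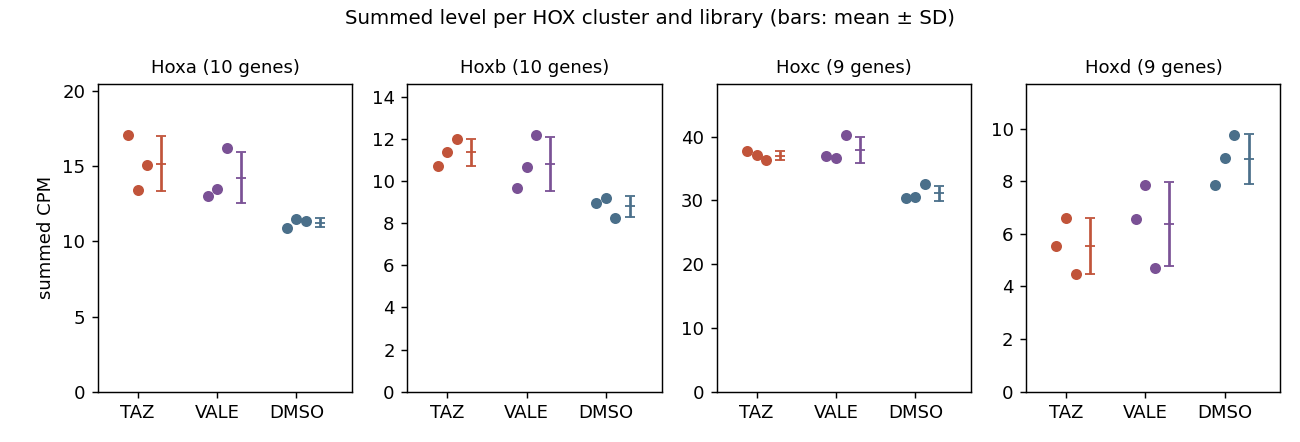
Summed CPM of each HOX cluster in each library (points), with the mean ± SD of each group of 3 (bars), tazemetostat, valemetostat and DMSO from left to right. On this CPM scale Hoxa, Hoxb and Hoxc lie higher with the inhibitors, and Hoxd lies at 4.468 to 7.854 CPM with them, against 7.865 to 9.756 CPM in DMSO.

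No HOX gene at 0 in DMSO reached more than 2 counts with an inhibitor. Of 17 HOX genes at 0 in all DMSO libraries, 1 had any count with tazemetostat (Hoxa13) and 0 with valemetostat, and 0 reached 10 counts in either group. Among all 28500 genes at 0 in DMSO, 250 reached 10 counts with tazemetostat (0.877%) and 202 with valemetostat (0.709%). The 7 HOX genes with counts below the filter were Hoxa4, Hoxa9, Hoxa13, Hoxb2, Hoxb5, Hoxb6 and Hoxc8. Hoxa9, a gene known for its part in leukaemia, had 17, 9 and 5 counts with tazemetostat, 12, 8 and 4 with valemetostat, and 12, 4 and 6 in DMSO. Hoxb6 had 12, 17 and 22 counts with tazemetostat, 5, 6 and 10 with valemetostat, and 11, 6 and 1 in DMSO. Hoxc8 had 0 counts in each tazemetostat library, 0, 0 and 3 with valemetostat, and 0, 3 and 6 in DMSO. For Hoxb6 every tazemetostat library was above every DMSO library, and for Hoxa9 and Hoxc8 the groups overlapped or met at 0. Hoxb5 had at most 11 counts and Hoxa4 at most 15 in a library, and Hoxb2 had 2 counts in all, in a DMSO library. Without any filter, 0 of the 7 were called in any comparison. The smallest edgeR adjusted p was 0.108, for Hoxc8, lower with tazemetostat, and Hoxb6, higher with tazemetostat, gave 0.198. The lowest tested genes were Hoxb3 with 109 counts in all and Hoxa2 with 113, and the highest untested was Hoxb6 with 90.

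Between the inhibitors, 0 HOX genes were called, by edgeR or by DESeq2, and 1, Hoxa5, had an unadjusted edgeR p under 0.05. Over all genes 40 of 12580 were called (0.318%), 0.0636% higher and 0.254% lower. The compounds differ in that valemetostat also inhibits EZH1, and whether their doses match is not known. Hoxa5 had a log2 difference of -0.63 ± 0.21 (SE; 95% interval -1.07 to -0.19), valemetostat over tazemetostat (edgeR unadjusted p = 0.00645, adjusted p = 0.35), and all valemetostat libraries, at 1.91 to 3.60 CPM, were below all tazemetostat libraries, at 3.71 to 4.45 CPM. The groups did not overlap in 4 of 15 HOX genes (2 above and 2 below), against 14.1% of all genes, 6.97% above and 7.12% below. For Hoxb4 the interval ran from -0.25 to 0.22 around -0.02, and for Hoxd3 from -0.45 to 0.53 around 0.04. For Hoxc4 it was -0.03 to 0.29 around 0.13, and for Hoxc9 -0.55 to 0.07 around -0.24. A call with 1 inhibitor alone, as for Hoxc4, Hoxc9, Hoxc10 and Hoxd4, is therefore not shown to be a difference between them.

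HOX proteins bind DNA with TALE partners of the PBX, MEIS and PREP families. Of 9 such genes, 6 were tested, 3 rose with tazemetostat and 2 with valemetostat, and 0 fell, against 19.9% higher and 18.2% lower over all genes with tazemetostat and 20.5% and 18.7% with valemetostat. Pbx2 averaged 60 ± 2.64 CPM with tazemetostat, 61.1 ± 2.85 CPM with valemetostat and 52.4 ± 3.69 CPM in DMSO, with log2 fold changes of 0.20 for tazemetostat and 0.22 for valemetostat (edgeR adjusted p = 0.0138 and 0.00579). Pbx3 rose with tazemetostat (0.39 ± 0.12, edgeR adjusted p = 0.0097) and was not called with valemetostat (0.28 ± 0.12, edgeR adjusted p = 0.0632). Pknox2, which encodes PREP2, had 264 counts with tazemetostat, 304 with valemetostat and 2 in DMSO, a ratio of 125 for tazemetostat (95% counting interval 34.2 to 1030) and 162 for valemetostat (44.3 to 1340). Meis1 had 0 counts in every library. The median log2 fold change of the tested TALE genes was 0.03 with tazemetostat and 0.14 with valemetostat.

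Among 13 other homeobox genes of the same class near or related to HOX, 8 were at 0 and 1, Cdx1, was tested. Cdx1, a regulator of HOX genes in the embryo, had 153 counts with tazemetostat, 99 with valemetostat and 36 in DMSO, and rose with tazemetostat (2.05 ± 0.47, edgeR adjusted p = 0.00121) and with valemetostat (1.57 ± 0.48, edgeR adjusted p = 0.011). The 6 miRNA genes of the clusters that the table lists, Mir10a, Mir10b, Mir196a-1, Mir196a-2, Mir196b and Mir615, were at 0 in every library. The other 14 noncoding genes of the list were not found under the symbols searched. Poly(A) selection removes most short RNAs, so counts for miRNA genes say little. Of the 23 tested genes that flank the clusters, 7 rose and 3 fell in each comparison, against shares over all genes of 19.9% and 18.2% with tazemetostat and 20.5% and 18.7% with valemetostat, with median log2 fold changes of 0.06 with tazemetostat and 0.07 with valemetostat. Distances of these genes from the clusters were not measured. Near Hoxd, Mtx2, which encodes a mitochondrial protein, rose (0.26 with tazemetostat and 0.37 with valemetostat, edgeR adjusted p = 0.000122 and 1.29e-06). Atp5g3, from the same list of flanking genes, rose as well (0.34 with tazemetostat and 0.35 with valemetostat). Near Hoxb, Nfe2l1 fell (-0.26 with tazemetostat and -0.27 with valemetostat), and near Hoxc, Cbx5, which encodes HP1α, fell (-0.16 with tazemetostat and -0.28 with valemetostat).

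The Polycomb and trithorax machinery was itself measured. The shares of all genes to set beside its counts are 19.9% higher and 18.2% lower with tazemetostat, and 20.5% higher and 18.7% lower with valemetostat. Of 12 tested PRC2 genes, 4 fell with each inhibitor and 0 rose, and the median log2 fold change was -0.05 with tazemetostat and -0.08 with valemetostat. With the length offset 1 was higher and 4 were lower with tazemetostat, and 0 were higher and 4 lower with valemetostat. The 4 called without the offset were Lcor, Mtf2, Phf19 and the core subunit Suz12. With tazemetostat their values were -0.42, -0.35, -0.19 and -0.18, and with valemetostat -0.51, -0.28, -0.21 and -0.16. Among 18 tested PRC1 genes, 6 were higher and 4 lower with tazemetostat (median -0.01), while 6 were higher and 3 lower with valemetostat (median 0.01). Pcgf5 averaged 20.7 ± 0.883 CPM with tazemetostat, 21 ± 1.76 CPM with valemetostat and 6.16 ± 0.96 CPM in DMSO, with log2 fold changes of 1.75 for tazemetostat and 1.78 for valemetostat, both called. With tazemetostat Bmi1 rose by 0.71, Phc1 rose by 0.44 and Phc3 fell by 0.43. With valemetostat Bmi1 rose by 0.73, Phc1 rose by 0.36 and Phc3 fell by 0.44. Of 19 tested trithorax and MLL complex genes, 1 was higher and 11 were lower with tazemetostat (median -0.23), and 1 was higher and 12 were lower with valemetostat (median -0.27). Kmt2a, the MLL methyltransferase gene that maintains HOX expression, averaged 59.9 ± 5.98 CPM with tazemetostat, 56 ± 4.87 CPM with valemetostat and 106 ± 9.41 CPM in DMSO, and fell by 0.82 with tazemetostat and 0.92 with valemetostat (edgeR adjusted p = 9.21e-08 and 1.99e-08). With tazemetostat Ash1l fell by 0.66, Aff1 fell by 0.40 and Aff4 fell by 0.36. With valemetostat Ash1l fell by 0.67, Aff1 fell by 0.54 and Aff4 fell by 0.48. This list has long transcripts, with a median exon length of 8705 nt against 4258 nt for all genes tested, and with a length offset 2 were higher and 11 lower with tazemetostat (median -0.15), and 2 higher and 12 lower with valemetostat (median -0.23). No gene of these lists was called between the inhibitors.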

How the data were processed

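Poly(A) RNA was selected and sequenced in pairs, per the labels' protocols. The authors deposited whole-number counts per gene and a table of log2 values that hold log2(TPM + 1). Per the submitters' processing notes, the files are on mm9. Aligner, counter, strand use and annotation were not given in the sources used here. Reads of overlapping, paralogous or antisense genes may therefore be split between them. GENCODE M21 (GRCm38) served only for lengths and exon overlaps. The RefSeq promoter table is of GRCm38.p6. The HOX genes and all lists were chosen with earlier results of these data known.

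Counts were tested in edgeR 4.0.16 (R 4.3.3), with TMM scaling, filterByExpr by group (minimum count 10, minimum total 15), the robust quasi-likelihood F test on all 9 libraries in 1 fit, and Benjamini-Hochberg adjustment over 12580 genes. CPM uses TMM-scaled library sizes. SE is the absolute log2 fold change divided by the square root of F. A HOX gene is not reported here and was left out of every HOX count, sum and median, though not of the fit. All others were accounted for, and up to 4 called genes by smallest p were named from each list. Meis1, Jazf1 and Ttll6 were named outside this rule. Alternatives used DESeq2 1.42.0, limma 3.58.1 on the log2(TPM + 1) values, other scalings and filters, groups fitted alone, a replicate block and each library left out. The transcript length offset and the summed Hoxd row were chosen after seeing the data. Same-numbered libraries showed no clear shared deviation (correlations -0.04 to 0.076), so the main fit did not pair them. Such correlations cannot exclude a batch shared by number. The labels do not say that libraries came from separate cultures, so p-values measure only the spread among libraries, which may be technical. Floors of 3 counts and counting intervals allow for counting error alone.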

Additional observations from a re-analysis of the deposited data

How the results depend on the processing

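Of 798 alternative values of the 15 genes, 743 kept their direction and call, 29 lost a call, 1 gained one and 25 changed sign, 0 of them called before. On log2(TPM + 1) with limma, HOX calls were 1 higher and 0 lower with tazemetostat and 1 higher with valemetostat, and 3123 genes were called with tazemetostat. With a length offset 2 HOX genes were higher with tazemetostat. Leaving out each library gave 2 to 4 HOX genes higher and 1 to 2 lower with tazemetostat, and 2 to 3 higher and 0 to 1 lower with valemetostat. The replicate block left the HOX calls at 4 higher and 2 lower with tazemetostat, and 3 higher and 1 lower with valemetostat, with 4527 and 4713 genes called in all. Between the inhibitors, all-gene calls were 75 with DESeq2, 93 with no filter, 1 on TPM and 9 to 73 with libraries left out, against 40. TPM gave summed log2 ratios for Hoxa of 0.28 with tazemetostat and 0.17 with valemetostat, against 0.43 and 0.34 on CPM, for Hoxc of 0.145 with tazemetostat and 0.185 with valemetostat, against 0.25 and 0.286, and for Hoxd -0.342 with tazemetostat, against -0.68; the cause was not tested. Between the inhibitors the Hoxd ratio was -0.145 on TPM, against 0.206.

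Uncalled genes changed sign as follows. On TPM, with tazemetostat, Hoxa2 was -0.007, Hoxa7 -0.123 and Hoxc5 0.084, and with valemetostat Hoxa3 was -0.051 and Hoxa7 -0.005, while Hoxd3 was -0.362 between the inhibitors. With the length offset Hoxa2 was -0.03 with tazemetostat and Hoxa6 -0.011 between the inhibitors, and with the replicate block Hoxa6 was -0.001. Leaving out libraries gave -0.255 to 0.418 for Hoxa2 and -0.624 to 0.068 for Hoxc5 with tazemetostat. Between the inhibitors it gave -0.263 to 0.205 for Hoxa6, -0.043 to 0.217 for Hoxa10, -0.1 to 0.054 for Hoxb4, -0.107 to 0.14 for Hoxc6 and -0.144 to 0.241 for Hoxd3. The 7 genes below the filter were too low to test, and 3 libraries a group limit the precision of every fold change.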

Other observations

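The number of TPM per CPM should be nearly constant for a gene if the same transcript length was assumed in every library. For Hoxa2, Hoxa5, Hoxa6, Hoxa10, Hoxb4, Hoxc4, Hoxc9 and Hoxc10 the highest library was 1.12 to 1.18 times the lowest, and for Hoxd4 1.27 times. In these genes, Hoxa10 and Hoxd4 aside, every DMSO ratio was above every inhibitor ratio. For Hoxc4 the DMSO ratios were 0.717 to 0.76 and the inhibitor ratios 0.678 to 0.708. For Hoxb4 they were 0.54 to 0.574 and 0.509 to 0.533. Log2 fold changes of these genes against DMSO were thus lower on TPM than on CPM. The ratio varied more for Hoxc6 (1.55 times) and Hoxb3 (1.71), while Hoxa9 reached 4.62 times, Hoxc5 2.97, Hoxa3 2.37, Hoxd3 2.32 and Hoxa7 1.89 times. In Hoxa3 and Hoxa7 the highest ratio was in DMSO library 3, at 1.2 and 1.28. The fold changes of all genes named here depend, to differing degrees, on which deposited table is used, and the cause was not tested.

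Jazf1, from the list of genes that flank the clusters, had 13, 5 and 12 counts with tazemetostat, 5, 28 and 16 with valemetostat and 0 in every DMSO library. That was at least 9.44-fold higher with tazemetostat and at least 17.4-fold higher with valemetostat, against 3 counts over the DMSO group. Ttll6, near Hoxb, had 4, 1 and 2 counts with tazemetostat, 10, 0 and 12 with valemetostat and 0 in every DMSO library. Both were singled out after their values were seen.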
